A study of Homo sapiens with 6 samples.

Results

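The genes for the nuclear-encoded subunits of oxidative phosphorylation were followed in the established line MDA-MB-231, which was derived from a human breast cancer and has a mesenchymal-like form. They were taken as the probe sets whose only gene symbol in the platform annotation starts with NDUFA, NDUFB, NDUFC, NDUFS, NDUFV, UQCR, COX4 to COX8 or ATP5, or is an SDH gene or CYC1, without the NDUFAF assembly factors. This gave 158 of the 54675 probe sets on the array, under 83 of the 19775 gene symbols that stand alone for a probe set. Of these symbols, 5 name an antisense or divergent transcript or a pseudogene (NDUFB2-AS1, NDUFV2-AS1, NDUFV1-DT, ATP5MC2P1 and COX6A1P1). The other 78 are subunit genes, with the ATP synthase inhibitor ATP5IF1 counted among them: 33 of complex I, 3 of complex II, 7 of complex III, 17 of complex IV and 18 of complex V. SDHB was not analysed here.

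Lentivirus carried enhanced GFP alone into the control cells, and GATA3 together with enhanced GFP into the others. GATA3 is a transcription factor of luminal mammary cells. Both populations were sorted for GFP, and both grew in high-glucose medium with serum and sodium pyruvate. Cells were seeded in 100 mm dishes and RNA was taken after 2 days. There were 3 arrays per group. The labels name neither the promoter that drove GATA3 nor any clone, and whether each triplicate was a culture of its own is not stated. The p-values thus rest on array-to-array spread, which may be technical. In total RNA from a culture, fewer cells of a kind and less RNA per cell cannot be told apart.

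The readings of GATA3 went against the label. Its brightest probe set read 9.37, 9.35 and 9.45 in the GFP control and 7.93, 7.94 and 7.32 in the arrays labelled GATA3, with all 3 labelled arrays below the control (log2 change -1.66, SE 0.18, limma adjusted p 0.00238). Higher and lower always refer to the labelled GATA3 arrays relative to GFP, and so rest on these labels. The markers VIM, ZEB1, CD44 and AXL of the labelled cell line lay between 9.1 and 15.06 on every array. ZEB1 among them was lower in the labelled arrays, at 9.10 to 9.19 against 11.02 to 11.11. The 8 leukocyte, endothelial and adipocyte markers lay between 2.16 and 2.48, where 2.16 is the floor of the values. Of the luminal breast markers, PGR and FOXA1 read 2.16 on every array, and ESR1 read 4.02 to 4.45. Of the epithelial markers, CDH1 read 2.35 on each control array and 6.61 to 7.92 on the labelled ones, and EPCAM 10.81 to 11.07 against 12.98 to 13.22. KRT8 and KRT18 also lay higher on every labelled array, and the summed level of the 4 was 39.40 to 39.62 in the control and 46.76 to 48.60 in the labelled arrays. The part of this shift in the results was not tested. GATA3 replicate 3 stood apart: it correlated with the other arrays of its group at 0.984 to 0.986, against 0.997 between those 2, and its raw file alone carries another date. Calls of named genes that change without it are given both ways.

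Oxidative phosphorylation couples the oxidation of NADH and succinate to the making of ATP at the inner mitochondrial membrane. Complexes I and II pass electrons to coenzyme Q, complex III passes them on to cytochrome c, and complex IV passes them to oxygen. Complexes I, III and IV pump protons, and complex V, the ATP synthase, uses the gradient through a rotating ring of c subunits. Most subunits are encoded in the nucleus and join a small core encoded in mitochondrial DNA. Several complex IV subunits have a widely expressed form and a form limited to some tissues or conditions.

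Expression of the subunit genes differed little between the groups, and most of the differences past the threshold were small rises. All values are GCRMA expression values on a log2 scale, so a difference of 1 is 2-fold. Testing was limited to probe sets over 4 in at least 3 of the 6 arrays, and each gene was represented by the brightest of those left. Of the 78 subunit genes, 71 passed this filter. In limma at an adjusted p of 0.05, 15 of them were higher and 1 was lower in the arrays labelled GATA3, and 55 did not pass. Among all 10814 genes tested, 29.3% passed, 14.8% higher and 14.5% lower (25.3% of all tested probe sets). The subunit genes passed in 22.5%, 21.1% higher and 1.41% lower. Their share of calls was thus no larger than that of all genes, and its split differed. No subunit gene changed 2-fold, against 7.56% of all genes. The changes ran from -0.79 for ATP5MC2 to 0.57 for COX7B, with a median of 0.06 against -0.02 over all genes. The absolute change was under 0.25 in 63 of the 71 subunit genes (88.7%), against 56.9% of all genes. The median SE was 0.05 for the subunit genes and 0.09 over all genes, and these comparisons were not matched for brightness. For 69 of the 71 the 95% interval of the change lay wholly within 1.5-fold either way, COX7B and ATP5MC2 being the exceptions.

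**Figure D1:**
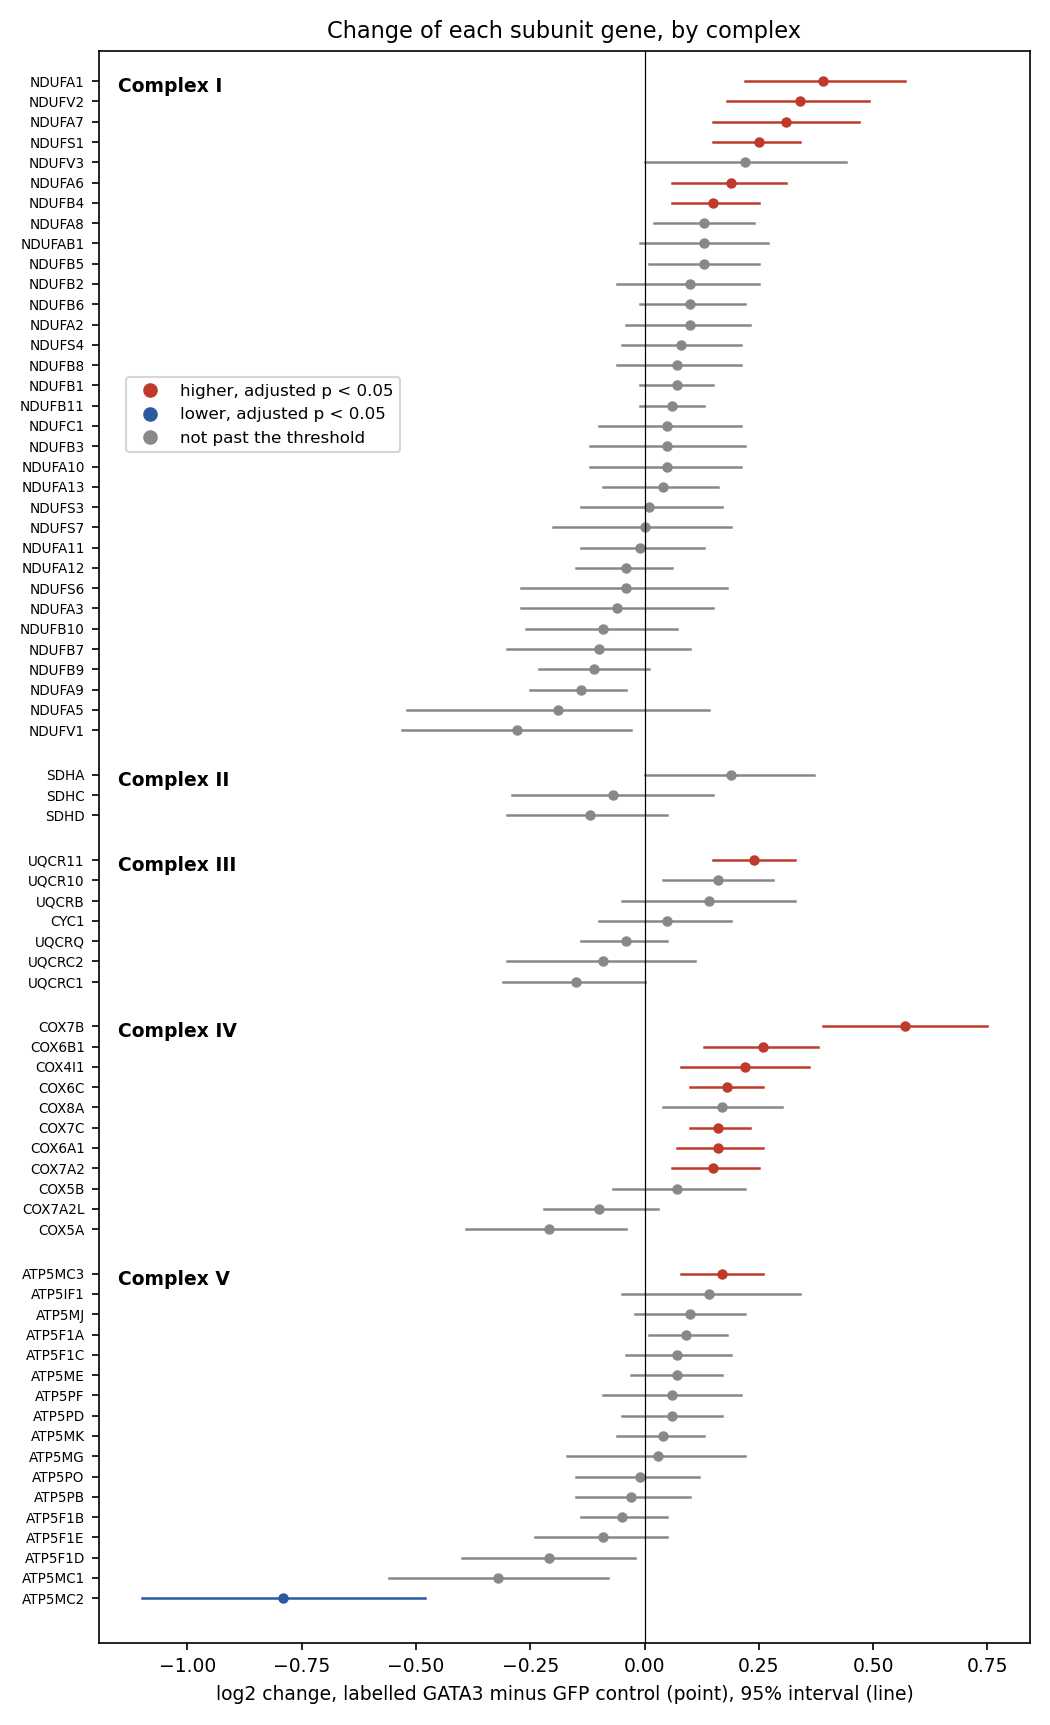
Log2 change of each of the 71 tested subunit genes between the labelled GATA3 arrays and the GFP control (3 arrays each), grouped by complex, with 95% intervals from limma. Red points are higher and the blue point is lower at an adjusted p of 0.05. Red points are 7 of 11 in complex IV and 6 of 33 in complex I, and ATP5MC2 of complex V lies alone at -0.79.

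These small differences rested on close replicates, and the number past the threshold moved with the arrays used. The arrays of the 2 groups did not overlap in 24 subunit genes that were higher (22.2% of all genes were so) and in 9 that were lower (27.2% of all genes). Leaving out GFP control replicate 2, GFP control replicate 3 or GATA3 replicate 1 gave 5, 7 and 8 higher subunit genes, while the share of all genes that passed went from 29.3% to 18.6%, 19.2% and 23%. Without GATA3 replicate 3 the count was 16 higher and 5 lower, while the share of all genes that passed rose to 35.5% (2051 higher and 1787 lower). The calls of NDUFS1, UQCR11, COX6C, COX7B, COX7C and ATP5MC2 were kept whichever array was left out. For the 10 others the highest adjusted p with an array left out lay between 0.0572 (NDUFA1) and 0.14 (NDUFA6).

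**Figure D2:**
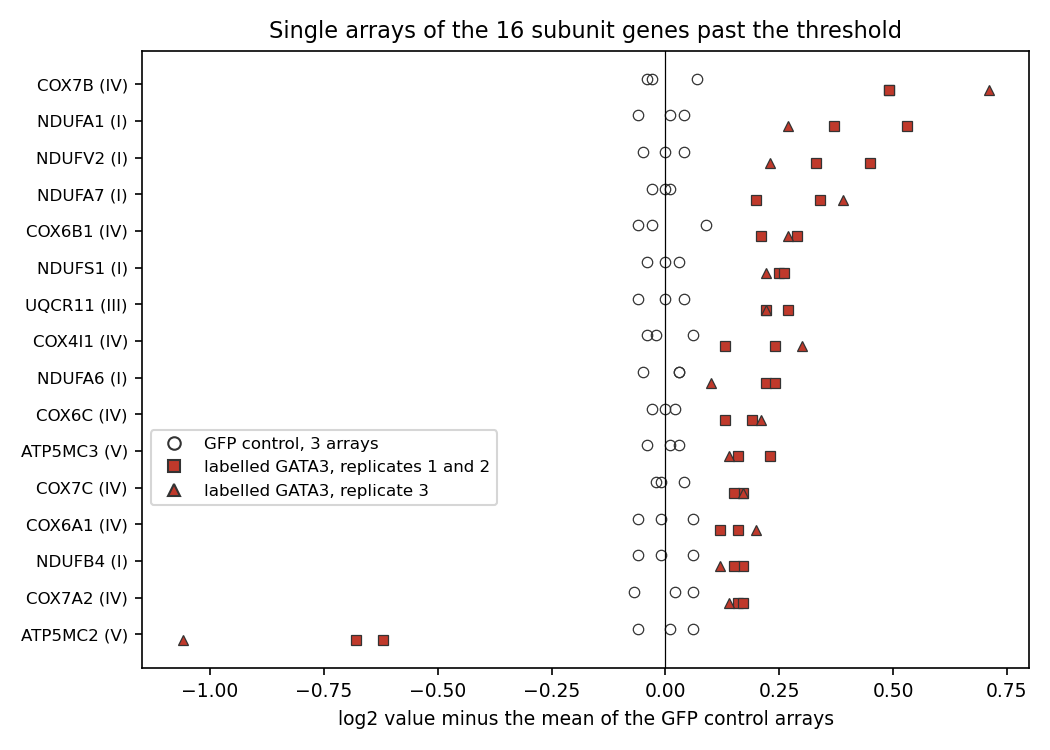
Value of each array minus the mean of the 3 GFP control arrays (log2) for the 16 subunit genes past the threshold, with the complex in brackets. Open circles are GFP control arrays, squares GATA3 replicates 1 and 2, and triangles GATA3 replicate 3. No gene has overlapping groups, and replicate 3 is the farthest from the control in ATP5MC2 and COX7B but the nearest in NDUFA1 and NDUFV2.

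Complex I takes electrons from NADH. Of its 33 subunit genes, all of which were tested, 6 were higher (18.2%, against 14.8% of all genes). Lower in limma were 0 (2 at an unadjusted p under 0.05), against 14.5% of all genes, and 27 did not pass. The median change was 0.06. NDUFA1, an X-linked subunit of the membrane arm, read 12.57, 12.50 and 12.60 in the GFP control and 13.09, 12.93 and 12.83 in the arrays labelled GATA3. It rose by 0.39 (SE 0.07, 1.31-fold, adjusted p 0.0129), and every labelled array lay above every control array. The accessory subunit gene NDUFA7 read 9.77, 9.76 and 9.73 in the control and 10.10, 9.96 and 10.15 in the labelled arrays. Its rise was 0.31 (SE 0.06, adjusted p 0.0194), again with no overlap.

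Of the subunits that first receive the electrons, NDUFV2 and NDUFS1 were higher and NDUFV1 did not pass. NDUFV1 holds the site where NADH is oxidised, and NDUFV2 and NDUFS1 carry iron-sulfur clusters next to it. NDUFV2 read 12.52, 12.43 and 12.48 in the GFP control and 12.93, 12.81 and 12.71 in the labelled arrays, higher by 0.34 (SE 0.06, adjusted p 0.0132). NDUFS1 read 11.14, 11.10 and 11.17 against 11.39, 11.40 and 11.36, higher by 0.25 (SE 0.04, 1.19-fold, adjusted p 0.00709). This holds for the brightest NDUFS1 probe set only: the other 3 tested had changes of -0.12, -0.29 and -0.88, none past the threshold, and the mean of the 4 had a change of -0.26. On the probe sets read, both genes had all labelled arrays above the control. NDUFV1 read 12.14, 12.04 and 12.00 in the control and 11.94, 11.82 and 11.57 in the labelled arrays, a change of -0.28 (SE 0.10) with an adjusted p of 0.0998. Its groups did not overlap, but the fall did not pass the threshold, and replicate 3 was the lowest. The differences between these 3 changes were not tested.

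Other subunits of complex I moved less. NDUFA6 (0.19, adjusted p 0.0479) and NDUFB4 (0.15, adjusted p 0.0358), both accessory subunits, made up the remaining rises. NDUFA12, another accessory subunit, read 13.67, 13.61 and 13.55 in the control and 13.61, 13.57 and 13.51 in the labelled arrays, a change of -0.04 with a 95% interval from -0.15 to 0.06. NDUFAB1, the mitochondrial acyl carrier protein, had a change of 0.13 and NDUFA9 one of -0.14, with adjusted p-values of 0.158 and 0.0631. Without GATA3 replicate 3 both passed, NDUFAB1 at 0.18 and NDUFA9 at -0.15, as did NDUFB5 at 0.17 and NDUFC1 at 0.12. The count of 6 higher genes of complex I was 1, 2 and 3 without GFP control replicate 2, GFP control replicate 3 and GATA3 replicate 1.

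Complex II, succinate dehydrogenase, also belongs to the citric acid cycle and has no subunit encoded in mitochondrial DNA. None of its 3 genes analysed here passed in limma (0 of 3 also at an unadjusted p under 0.05), against 29.3% of all genes. SDHA, the subunit that oxidises succinate, read 12.30, 12.20 and 12.10 in the GFP control and 12.48, 12.42 and 12.26 in the labelled arrays, a change of 0.19 (95% interval -0.00 to 0.37, adjusted p 0.134). SDHD, a membrane anchor, read 13.02, 13.11 and 13.11 against 12.88, 12.89 and 13.10, a change of -0.12 (adjusted p 0.239). Its first 2 labelled arrays lay below the control and the third within it, and without GATA3 replicate 3 the change was -0.20 (adjusted p 0.0218). The other anchor gene, SDHC, read 11.42, 11.46 and 11.52 against 11.45, 11.53 and 11.21, and its groups overlapped. Its 6 tested probe sets had changes from -0.23 to 0.15, and none of them passed.

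Complex III oxidises coenzyme Q. Of 7 genes tested, 1 was higher (14.3%, against 14.8% of all genes). Lower in limma were 0 (0 also at an unadjusted p under 0.05), against 14.5% of all genes, and 6 did not pass. UQCR11, which encodes a small accessory subunit, read 12.47, 12.41 and 12.51 in the GFP control and 12.74, 12.69 and 12.69 in the labelled arrays. It rose by 0.24 (SE 0.04, 1.18-fold, adjusted p 0.00697), with every labelled array above the control. UQCRB, a subunit near the quinone site, read 13.84, 13.83 and 13.75 against 14.05, 14.00 and 13.79. GATA3 replicate 3 lay within the control range, and the change of 0.14 did not pass (adjusted p 0.231). Without that array it was 0.22 with an adjusted p of 0.0178. The large core subunit genes UQCRC1 (-0.15, adjusted p 0.136) and UQCRC2 (-0.09, adjusted p 0.434) and the gene for cytochrome c1, CYC1 (0.05, adjusted p 0.596), did not pass either.

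Complex IV, cytochrome c oxidase, passes electrons from cytochrome c to oxygen. Of its 11 tested genes 7 were higher (63.6%, against 14.8% of all genes), 0 were lower in limma (1 at an unadjusted p under 0.05) and 4 did not pass, with a median change of 0.16. Its median deviation from the mean of the GFP control was 0.05, -0.04 and -0.02 in the control arrays and 0.17, 0.13 and 0.20 in the labelled ones. Over all genes the same quantity was 0.00, -0.01 and -0.06 in the labelled arrays, so GATA3 replicate 3 was the lowest of them over all genes and the highest in complex IV. The count of 7 was 3, 4, 3 and 4 without GFP control replicate 2, GFP control replicate 3, GATA3 replicate 1 and GATA3 replicate 3. With each array centred on its median it was 2, COX7B and COX6B1. The changes were not smaller in that setting, where the median over all genes moved from -0.02 to 0.06. COX4I1, COX6C, COX6A1 and COX7A2 had changes of 0.30, 0.26, 0.24 and 0.23, with limma adjusted p-values from 0.064 to 0.0978. Complex I then had 7 of 33 higher, complex III 2 of 7, complex II 1 of 3 and complex V 2 of 17, with 2 lower. Under that setting 31.6% of the 10814 genes passed, 2022 higher and 1391 lower. No order of the complexes is drawn from these counts.

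COX7B, an X-linked small subunit, showed the largest rise of all subunit genes. It read 12.98, 12.88 and 12.87 in the GFP control and 13.40, 13.40 and 13.62 in the arrays labelled GATA3, higher by 0.57 (SE 0.07, 1.48-fold, adjusted p 0.00388). All labelled arrays lay above the control and the third was the highest; without it the rise was 0.50 (adjusted p 0.00262). COX6B1, which faces the intermembrane space and cytochrome c, read 12.82, 12.67 and 12.70 against 13.02, 12.94 and 13.00. Its rise was 0.26 (SE 0.05, 1.19-fold, adjusted p 0.0163), with the groups apart.

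COX4I1 encodes the widely expressed form of a subunit through which ATP regulates the enzyme. It read 13.17, 13.07 and 13.09 in the GFP control and 13.35, 13.24 and 13.41 in the labelled arrays, higher by 0.22 (SE 0.05, adjusted p 0.0355). Without GATA3 replicate 3 the change was 0.18 and did not pass (adjusted p 0.058), and the call was kept in only 1 of the 6 fits with an array left out. Of its other tested probe sets, 1 also passed (0.21, adjusted p 0.0209) and 1 did not (0.23, adjusted p 0.226). COX6C read 13.72, 13.74 and 13.69 against 13.91, 13.85 and 13.93, higher by 0.18 (SE 0.03, 1.13-fold, adjusted p 0.0121). The rises of COX7C (0.16, adjusted p 0.00838), COX6A1 (0.16, adjusted p 0.0328) and COX7A2 (0.15, adjusted p 0.0404) were of like size. COX7C passed on only 1 of its 3 tested probe sets. The others had changes of 0.06 (adjusted p 0.25) and 0.27 (adjusted p 0.0868). Without GATA3 replicate 3, COX6A1 (adjusted p 0.0658) and COX7A2 (adjusted p 0.0636) did not pass. COX8A had a change of 0.17 that did not pass (adjusted p 0.0698), although its groups did not overlap.

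Among the complex IV genes that did not pass, COX5A had the lowest change. It encodes a subunit on the matrix side. It read 13.86, 13.81 and 13.88 in the GFP control and 13.73, 13.70 and 13.48 in the labelled arrays, a change of -0.21 (SE 0.07, adjusted p 0.0826). Every labelled array lay below the control, and without GATA3 replicate 3 the change was -0.14 (adjusted p 0.0392). COX7A2L, a factor that joins complexes III and IV into supercomplexes, had a change of -0.10 (adjusted p 0.211). COXFA4, formerly NDUFA4 and now assigned to complex IV, is not caught by its present symbol. It read 12.88, 12.94 and 12.92 in the control and 13.26, 13.35 and 13.30 in the labelled arrays, higher by 0.39 (SE 0.04, 1.31-fold, adjusted p 0.00117).

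The tissue-limited forms of complex IV subunits stayed at or near the floor in both groups. COX6A2 and COX7A1, the heart and muscle forms, read 2.16 on all 6 arrays, as did COX6B2, known from testis, and COX8C. COX4I2, the form induced by low oxygen and found in lung, read 2.64 or 2.65 on every array. COX7B2 read 3.08 to 3.17. COXFA4L2, a form known to be induced by hypoxia, read 2.24 to 2.37. None of these was tested, so no change of form was detectable on these arrays. The widely expressed counterparts (COX4I1, COX6A1, COX6B1, COX7A2, COX7B and COX8A) all lay over 11 on every array.

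Promoter sequence is shown for the 5 higher complex IV genes with 1 listed start in the RefSeq table of build GRCh38.p14, so that genes that rose together can be set side by side. Each run is the 250 bases before the start of the gene, 5′ to 3′, and capitals mark the words searched on both strands. These were the NRF1 site GCGCNTGCGC, the ETS core CCGGAAG bound by GABPA, the YY1 core AAGATGGCG, the GC box GGGCGG, and GATA with A or T before it and A or G after it. NRF1, GABPA and YY1 are factors known to act on many genes of the respiratory chain.
COX7B, chrX:77899218-77899467, plus strand: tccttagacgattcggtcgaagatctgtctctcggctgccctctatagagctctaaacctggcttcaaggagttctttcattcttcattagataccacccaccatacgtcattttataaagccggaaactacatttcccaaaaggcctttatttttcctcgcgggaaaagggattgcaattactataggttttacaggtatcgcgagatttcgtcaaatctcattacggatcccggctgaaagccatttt
COX6B1, chr19:35648073-35648322, plus strand: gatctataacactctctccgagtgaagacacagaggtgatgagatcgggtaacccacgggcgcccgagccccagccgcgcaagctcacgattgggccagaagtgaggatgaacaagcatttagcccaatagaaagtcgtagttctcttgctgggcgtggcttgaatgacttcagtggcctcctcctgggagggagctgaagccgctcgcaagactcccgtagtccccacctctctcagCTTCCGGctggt
COX4I1, chr16:85799445-85799694, plus strand: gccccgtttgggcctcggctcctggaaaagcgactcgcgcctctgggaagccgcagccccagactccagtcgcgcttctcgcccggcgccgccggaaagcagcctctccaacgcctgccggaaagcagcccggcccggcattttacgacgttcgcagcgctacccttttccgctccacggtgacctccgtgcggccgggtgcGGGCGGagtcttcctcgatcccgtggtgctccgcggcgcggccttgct
COX6A1, chr12:120437863-120438112, plus strand: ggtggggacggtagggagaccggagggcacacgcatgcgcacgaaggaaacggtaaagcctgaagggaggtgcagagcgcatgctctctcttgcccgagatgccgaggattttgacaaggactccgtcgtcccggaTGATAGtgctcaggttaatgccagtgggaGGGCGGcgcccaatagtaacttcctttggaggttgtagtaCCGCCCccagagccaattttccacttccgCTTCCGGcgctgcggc
COX7C, chr5:86617691-86617940, plus strand: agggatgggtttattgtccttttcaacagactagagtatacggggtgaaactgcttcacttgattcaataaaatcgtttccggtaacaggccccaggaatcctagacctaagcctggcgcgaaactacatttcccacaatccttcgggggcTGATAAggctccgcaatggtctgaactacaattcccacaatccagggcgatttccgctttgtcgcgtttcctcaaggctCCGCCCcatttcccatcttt

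The 5 promoters did not all hold the same words. A GC box was found in COX4I1, COX6A1 and COX7C. COX6B1 and COX6A1 each had an ETS core, read as CTTCCGG on the strand shown, ending 6 and 10 bases before the start. COX6A1 and COX7C each had a GATA word, and COX7B had none of the words searched. Of the 78 subunit genes 66 were matched in the table, and 62 of the 71 tested, with 75 windows. An NRF1 site was found in 17.3% of these windows and in 5.07% of the 35116 windows of all genes. The ETS core was found in 22.7% against 8.52%, the YY1 core in 2.67% against 0.652%, and the GC box in 60% against 42.6%. A GATA word was found in 18.7% of the windows of tested subunit genes and in 22.3% of all windows. Of the 15 windows of genes that were higher, 4 held a GATA word, as did 9 of 57 windows of genes that did not pass and 1 window of the lower gene, ATP5MC2. In complex IV, 4 of 12 windows held the ETS core and 0 of 12 an NRF1 site. A match is a description of these letters and shows neither binding nor a cause.

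Complex V, the ATP synthase, had 1 gene higher and 1 lower among 17 tested (5.88% each, against 14.8% and 14.5% of all genes). Both genes encode the same part. The c ring of the motor is built from a single mature protein that 3 genes, ATP5MC1, ATP5MC2 and ATP5MC3, encode with different targeting sequences. ATP5MC2 read 11.79, 11.67 and 11.74 in the GFP control and 11.11, 11.05 and 10.67 in the arrays labelled GATA3. It fell by 0.79 on the log2 scale (SE 0.12, 1.73-fold lower, adjusted p 0.00779), with every labelled array below the control and the third the lowest. Without GATA3 replicate 3 the change was -0.65 (adjusted p 0.00182). Its other probe set lay at the floor of 2.16 on all arrays.

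ATP5MC1 and ATP5MC3 took the other positions in this set. ATP5MC3 read 13.92, 13.85 and 13.90 against 14.12, 14.05 and 14.03, higher by 0.17 (SE 0.04, 1.13-fold, adjusted p 0.0206). All 3 of its probe sets were higher, by 0.16, 0.17 and 0.41. The call was lost without GFP control replicate 2, GFP control replicate 3 or GATA3 replicate 2, with an adjusted p of up to 0.0751. ATP5MC1 read 11.44, 11.36 and 11.42 against 11.23, 11.15 and 10.88, a change of -0.32 (SE 0.10) with an adjusted p of 0.0612. Its groups did not overlap, and without GATA3 replicate 3 the change was -0.22 (adjusted p 0.0215).

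The unequal change within this gene set was seen on every array. The log2 value of ATP5MC3 minus that of ATP5MC2 was 2.13, 2.19 and 2.16 in the GFP control and 3.02, 3.00 and 3.35 in the labelled arrays. This difference shifted by 0.96 (two-sided exact permutation p = 0.1, the smallest that 3 arrays against 3 allow). That p-value was fixed beforehand, since neither gene had overlapping groups and they moved in opposite directions. It adds no support to the 2 calls. Probe sets bind with different strength, so only its shift can be read and not its size. The difference of ATP5MC1 minus ATP5MC2 went from -0.35, -0.30 and -0.33 to 0.12, 0.10 and 0.21, a shift of 0.47 (exact permutation p = 0.1). This p-value is likewise the smallest possible. It rests on the large fall of ATP5MC2 and adds no support to that call. The amount of the shared protein was not measured.

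**Figure D3:**
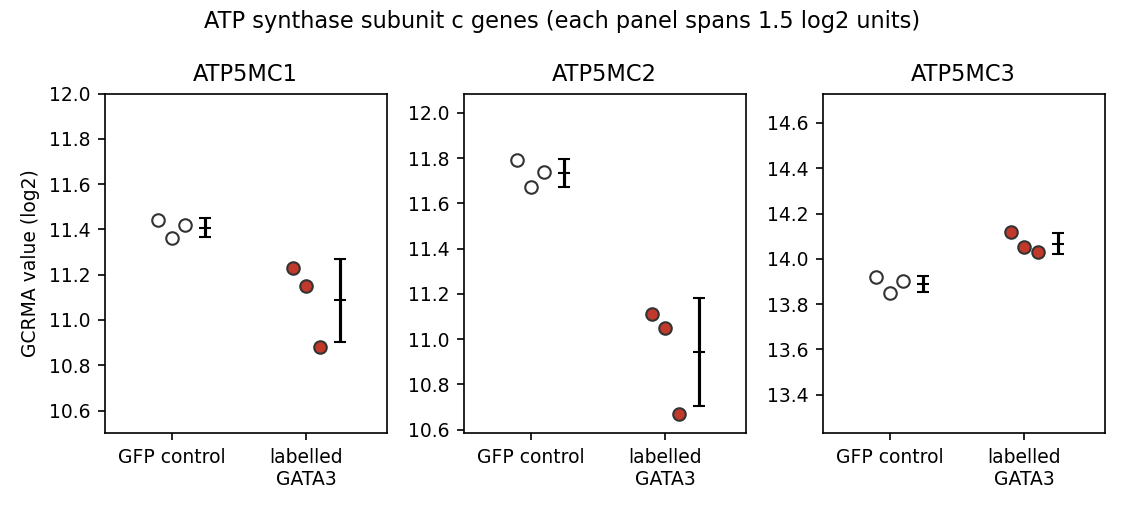
GCRMA values (log2) of the 3 genes for the c subunit of ATP synthase on each GFP control array (open circles) and each array labelled GATA3 (red), with mean and SD (n = 3). Each panel spans 1.5 log2 units. ATP5MC1 and ATP5MC2 lie lower in the labelled arrays, by 0.32 (not past the threshold) and 0.79, and ATP5MC3 lies higher by 0.17.

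The promoters of ATP5MC1 and of the outermost of the 3 listed starts of ATP5MC2 are shown for comparison with each other, in the same form as above. Neither printed window held any of the words searched, so there are no capitals. Of the other listed starts of ATP5MC2, 1 has a GATA word in its window. ATP5MC3 is named only.
ATP5MC1, chr17:48892537-48892786, plus strand: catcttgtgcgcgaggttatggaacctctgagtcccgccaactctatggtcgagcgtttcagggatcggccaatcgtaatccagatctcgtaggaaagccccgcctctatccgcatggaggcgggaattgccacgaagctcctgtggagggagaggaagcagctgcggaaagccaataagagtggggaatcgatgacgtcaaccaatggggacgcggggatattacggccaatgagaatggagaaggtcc
ATP5MC2, chr12:53676331-53676580, minus strand: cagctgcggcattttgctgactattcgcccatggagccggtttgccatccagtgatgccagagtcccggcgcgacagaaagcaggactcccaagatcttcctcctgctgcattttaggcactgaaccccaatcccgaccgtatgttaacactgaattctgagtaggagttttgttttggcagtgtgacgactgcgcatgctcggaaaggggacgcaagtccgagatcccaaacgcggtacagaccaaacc

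The rest of the ATP synthase differed by less than the threshold allows to be called. The catalytic core genes ATP5F1A and ATP5F1B had changes of 0.09 (adjusted p 0.112) and -0.05 (adjusted p 0.414). ATP5F1E, which encodes the small epsilon subunit of the central stalk, read 14.50, 14.49 and 14.44 in the GFP control and 14.39, 14.49 and 14.27 in the labelled arrays, with overlapping groups. ATP5F1D, the delta subunit gene, had a change of -0.21 (adjusted p 0.1). The stalk genes ATP5PB, ATP5PD, ATP5PF and ATP5PO had changes between -0.03 and 0.06. ATP5IF1, an inhibitor that stops the enzyme from running in reverse, read 12.25, 12.20 and 12.17 against 12.50, 12.34 and 12.20, a change of 0.14 (95% interval -0.05 to 0.34, adjusted p 0.238). ATP5MF was measured here by a probe set that read 2.60 on all 6 arrays, and was not tested.

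Probe sets of the same gene were compared. Of 29 genes with more than 1 tested probe set, 0 had probe sets past the threshold in opposite directions. None of their probe sets was lower past the threshold, so this count is no check on direction. All probe sets passed in ATP5MC3 and NDUFA6, some of them in 6 genes and none in 21. The changes within a gene lay less than 0.2 apart in 19 of the 29. Most subunit changes were under 0.25, and some of these probe sets were dim and flat, so such closeness says little. NDUFS1 had the widest gap. Its most deviating probe set read 7.32, 7.95 and 7.97 in the GFP control and 6.92, 7.40 and 6.26 in the labelled arrays, a change of -0.88 (SE 0.34, adjusted p 0.115), against 0.25 for the bright one. The groups overlapped on that probe set, and the mean of the 4 tested probe sets of NDUFS1 had a change of -0.26 (adjusted p 0.0541). UQCR10 and NDUFB2, small subunits of complexes III and I, passed on a dimmer probe set (0.41, adjusted p 0.0316, and 0.18, adjusted p 0.038) but not on the brightest. Of the 122 tested probe sets 20 carry the suffix _x_at and 41 the suffix _s_at, for probes that may be shared with similar transcripts. Many of these genes have processed pseudogenes, so their identity is less certain there. Without these suffixes, 12 of 50 genes were higher and 0 lower (ATP5MC2 is then not measured). Of all 8025 genes tested that way 28% passed, 1105 higher and 1144 lower.

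**Figure D4:**
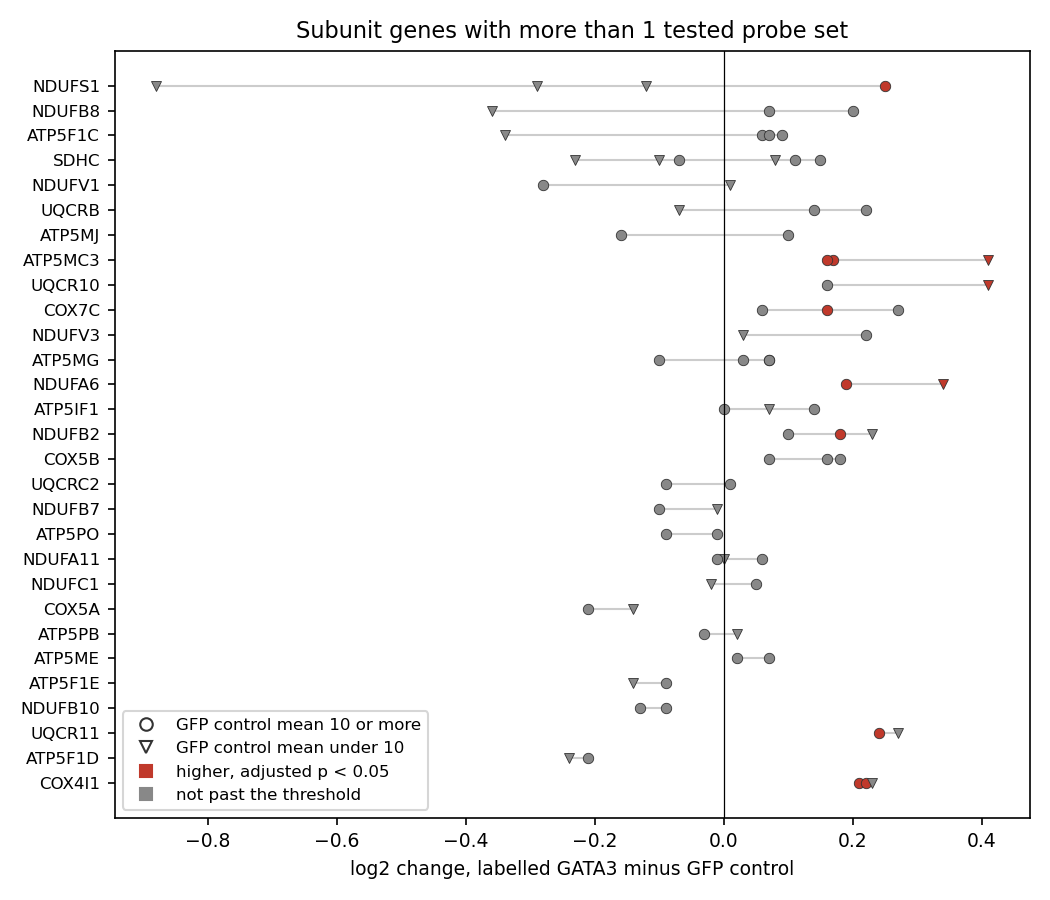
Log2 change of every tested probe set in the 29 subunit genes with more than 1, labelled GATA3 against GFP. Circles have a control mean of 10 or more, triangles a lower one, and red marks an adjusted p under 0.05. NDUFS1 spans -0.88 to 0.25, and no probe set of these genes is lower past the threshold.

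The core subunits encoded in mitochondrial DNA did not pass in any of 7 genes with a tested probe set. In limma 0 of 7 passed, also at an unadjusted p under 0.05, against 29.3% of all genes past the adjusted threshold. ND4 of complex I read 15.42, 15.52 and 15.48 in the GFP control and 15.39, 15.47 and 15.55 in the labelled arrays, a change of -0.01 (95% interval -0.13 to 0.12). The mitochondrial COX1, the catalytic subunit of complex IV, read 15.61, 15.75 and 15.66 against 15.62, 15.62 and 15.72, a change of -0.02 (95% interval -0.14 to 0.10). These values lie near the highest on the arrays, 15.8, where the reading may no longer follow the amount of RNA. ND6, the subunit encoded on the other strand, read 9.92, 9.72 and 9.87 against 9.91, 9.51 and 10.80, and only GATA3 replicate 3 stood out.

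Other genes of the respiratory system showed no common direction. Of 53 tested assembly factors, which help build the complexes, 7 were higher and 6 lower (24.5% called, against 29.3% of all genes). The factor for the iron-sulfur protein of complex III, LYRM7, fell from 9.70 to 8.33 (log2 change -1.37, SE 0.13, adjusted p 0.00152), and SDHAF1, a factor for complex II, rose by 1.02 (SE 0.13, adjusted p 0.00419). Both changes were larger than those of any subunit gene of the same complexes. Of 76 mitochondrial ribosomal protein genes 7 were higher and 10 lower (22.4% called), with a median of -0.01; MRPL34 rose by 0.52 and MRPL11 fell by 0.34. Of 28 genes of protein import and quality control 2 were higher and 2 lower (14.3% called). TIMM50 and TOMM5, both of the import machinery, changed by -0.27 and -0.21.

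Regulators of mitochondrial gene expression had 2 higher and 4 lower of 24 tested (25% called, against 29.3% of all genes), with a median of -0.15. PPARGC1A encodes PGC-1alpha, a coactivator that raises mitochondrial biogenesis in many tissues. It read 3.26, 3.08 and 3.49 in the GFP control and 5.84, 6.07 and 4.74 in the labelled arrays. All control arrays lay under the detection level of 4, so its level was at least 2.92-fold higher in the labelled arrays. It passed the filter on low values only through those arrays, so its place among the 2 higher genes rests on that selection and supports nothing further. GABPB2, which encodes a partner of GABPA, changed by -0.66 (adjusted p 0.0259). The other higher gene was ESRRA (0.47, adjusted p 0.00458). The other lower genes were GABPB1 (-0.45, adjusted p 0.0227), TFAM (-0.42, adjusted p 0.0474) and NRF1 (-0.34, adjusted p 0.0342).

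Fuel and carrier genes were mixed as well. Of 22 citric acid cycle and pyruvate genes 2 were higher and 2 lower (18.2% called, against 29.3% of all genes), among them MPC2 (0.38) of the mitochondrial pyruvate carrier and DLD (0.26), a shared subunit of the pyruvate and oxoglutarate dehydrogenases. Of 19 electron carriers, shuttles and mitochondrial carriers 1 was higher and 1 lower (10.5% called). UCP2, an inner membrane carrier, read 12.38, 12.42 and 12.36 in the GFP control and 11.18, 11.19 and 11.07 in the labelled arrays, lower by 2.37-fold (log2 change -1.24, SE 0.05, adjusted p 5.05e-05). The ADP/ATP carrier gene SLC25A5 rose by 0.24 (adjusted p 0.00458). Of 13 coenzyme Q genes 1 was higher and 3 lower (30.8% called), with COQ10B at 0.62 and COQ8A at -0.83.

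**Figure D5:**
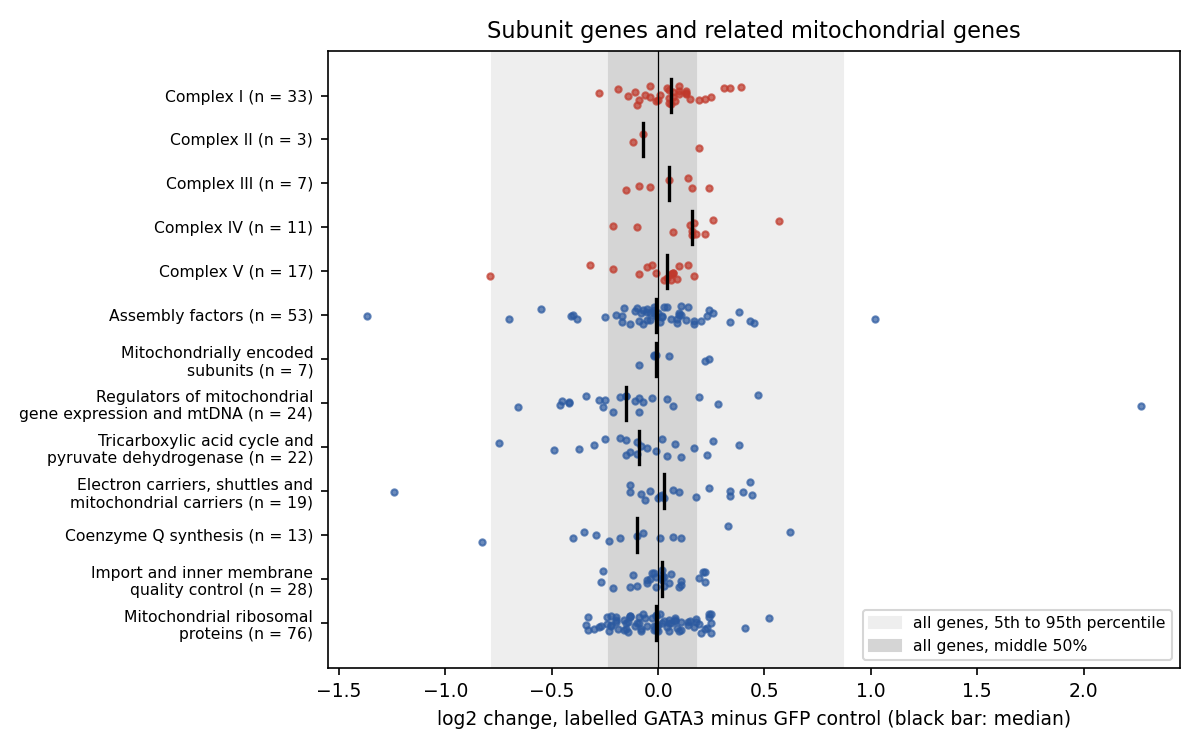
Log2 change of each tested gene between the labelled GATA3 arrays and the GFP control, for the 5 complexes (red) and 8 lists of related mitochondrial genes (blue). Black bars are medians, and the grey bands hold the middle 50% and the 5th to 95th percentile of all 10814 genes, the latter from -0.78 to 0.87. Complex IV has the highest median at 0.16, and the genes outside the wider band are PPARGC1A, SDHAF1, LYRM7, UCP2, COQ8A and, just past its edge, ATP5MC2.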

How the data were processed

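Gene expression was measured on 6 single-colour Affymetrix arrays, 3 per group, from biotin-labelled total RNA. The authors made the deposited values, read here as log2 expression, with GCRMA (named in the submitters' processing notes, no version given), which corrects background by probe sequence, normalizes between arrays and summarises each probe set. The scale itself is not stated; the range from 2.16 to 15.8 fits log2. GCRMA sets many probe sets to a common floor, and some probe sets repeat a value of their own, so a value over 4 need not be signal. With 3 arrays per group the precision is limited.

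Nothing was renormalized. The 62 control probe sets were left out, and 23785 probe sets over 4 in at least 3 of the 6 arrays, whatever the group, were tested with limma (version 3.58.1 in R 4.3.3; lmFit and eBayes with an intensity trend, no covariates). P-values were adjusted by Benjamini-Hochberg over all of them, two-sided, at 0.05. Symbols came from the platform annotation (41091 probe sets with 1 symbol, 1801 with several, 11721 with none). The fit was tested on simulated data with planted changes larger than most of those in the subunit genes. That test thus says nothing on the small rises reported here.

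Named were, per complex, up to 4 genes with the largest change past the threshold without overlap and the gene with the highest mean, the paralogue sets of complex IV and subunit c, ATP5IF1, the SDH genes, and up to 2 genes per related list. COX7C and the other genes outside this rule were named after their values were seen. Members and lists were chosen with earlier results of these data known. Same-numbered arrays did not deviate together (correlations -0.135, 0.159 and -0.109).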

Additional observations from a re-analysis of the deposited data

How the results depend on the processing

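Of the 23 tested subunit genes named by rule, values under other settings kept direction and side of the threshold in 280 of 363 comparisons, were no longer past it in 60, newly past it in 16 and turned sign in 7. Of all tested probe sets 6027 passed; this was 3613 without a filter on low values, 9387 with array weights, 2976 at an adjusted p of 0.01, and 3688 to 7333 with 1 array left out. The number of higher subunit genes was 15. It was 5 without a filter, 8 without an intensity trend and 23 with array weights. At 0.01 it was 4, and with 1 array left out 5 to 16. Of all genes 1601 were higher. In the same order this was 1095, 1502, 2402, 941 and 1079 to 2051. The number lower was 1. It was 2 with a filter at 6, after cyclic loess and after median centring, and 7 with array weights. With the mean of all probe sets it was 3, with the suffix _at alone 0, and with 1 array left out 1 to 5. Of all genes 1571 were lower. In the same order this was 1626 (of 9619), 1605, 1391, 2334, 1987, 1144 (of 8025) and 910 to 1787. With the replicate number as a block, which does not pair these samples, 4128 probe sets passed, with 11 subunit genes higher and 1 lower, and 3 of complex IV. NDUFS1 turned to -0.26 with the mean of its probe sets and to -0.12 with the suffix _at alone, UQCRB to -0.07 with the suffix _at alone, and NDUFA12 to 0.03 after median centring. SDHC turned to 0.01 after median centring and 0.03 with array weights, and lay between -0.13 and 0.02 with 1 array left out. The causes of these shifts were not tested. Changes of about 0.15 lie near what 3 arrays per group can separate, and dim probe sets less so.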
